A study of Caenorhabditis elegans with 6 samples.

Results

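Nuclear hormone receptors are transcription factors that bind DNA through a zinc-finger domain, and many change their activity when a lipid or another small molecule sits in a second, ligand-binding domain. The family is greatly expanded in the nematode Caenorhabditis elegans, mostly by copies related to the vertebrate HNF4 receptors. In the worm, members are known for tuning gut metabolism to diet, for switching on defences against toxins and pathogens, and for organ development and molting. The genes described here are those whose WormBase symbol is nhr- followed by a number, apart from 5 (nhr-23, nhr-25, nhr-49, nhr-80 and nhr-85) that the rule left out. This gave 264 genes of 46911 in the tables, and all 264 are annotated as protein-coding. The rule used names only, with no measured value.

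RNA of whole animals was sequenced from 2 genotypes, with 3 libraries each. The mutant, nmr-2(ok3324), carries the ok3324 allele of nmr-2, whose product is a subunit of the NMDA class of glutamate receptors, and N2 is the wild type (WT). Animals of both were staged by timed egg laying, kept at 20 °C on Escherichia coli OP50 and collected as L4 larvae. Each gene has a whole-number read count per library, and levels are given as CPM, counts scaled to 1e+06 per library with TMM factors. The comparison asks how transcript levels differ between animals with this allele and WT animals.

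Library totals ran from 21234748 to 27893186 counts, and 3 counts correspond to 0.106 to 0.145 CPM. The TMM factors of nmr-2(ok3324) replicate 2, at 1.20, and WT replicate 2, at 0.838, stood apart from the other 4, which lay between 0.986 and 1.01. Reads of nmr-2 itself were too few to check the labels, 13 in all mutant libraries and 19 in all WT libraries. Markers of the main tissues of a whole animal were present: intestine, body wall and pharyngeal muscle, neurons, germline and excretory cell all had every listed marker above the low-count filter. In the epidermis list dpy-7, a collagen gene, stayed below it. Another collagen gene of that list, rol-6, had 5.43, 5.42 and 4.18 CPM in nmr-2(ok3324) libraries and 3.49, 1.36 and 2.01 CPM in WT libraries. These groups did not overlap (log2 fold change 1.13, edgeR adjusted p = 0.0691). The log2 fold changes of the other epidermis markers were -0.25 for elt-3 and 0.0003 for lin-26. Summed germline markers lay between 1475 and 1653 CPM in nmr-2(ok3324) libraries and between 1814 and 1912 CPM in WT libraries. Summed pharyngeal muscle markers lay between 83.3 and 101 CPM in nmr-2(ok3324) libraries and between 63.2 and 75.6 CPM in WT libraries. Of the 4 neuronal markers, snb-1, at 128 CPM in the mutant and 147 CPM in WT, was by far the most abundant and set the sums of 137 to 146 CPM in nmr-2(ok3324) libraries and 154 to 163 CPM in WT libraries (log2 fold change of snb-1 -0.20). The other 3 had log2 fold changes above 0, at 0.58 for rab-3, 0.24 for ric-4 and 0.70 for unc-104. Summed intestinal markers overlapped, at 897 to 1040 CPM in the mutant and 935 to 1145 CPM in WT, and most of these sums was act-5. Single markers went both ways, with log2 fold changes of -0.32 for ges-1, 0.32 for elt-2, 0.34 for pept-1, -0.09 for act-5 and -0.01 for ifb-2. No listed marker passed the threshold. In whole animals, fewer cells of a type and less RNA per cell cannot be told apart.

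No receptor gene that could be tested passed the threshold in the main edgeR fit, in either direction. Of the 264, 149 passed the low-count filter and could be tested, and 0 had an edgeR adjusted p under 0.05 in either direction, as with limma-voom, while DESeq2 called 1. Over all 13138 tested genes 1.79% rose and 0.373% fell. The lowest adjusted p of the family was 0.0889, for nhr-205. At an unadjusted p under 0.05 there were 6 members (4.03%), against 17.2% of all tested genes. These were 3 with higher and 3 with lower values in the mutant, where the shares over all tested genes were 10.3% and 6.92%. The median log2 fold change, mutant over WT, was 0.04 over the tested members and 0.03 over all tested genes, with 82 members above 0 and 67 below. Without both libraries numbered 2, which stood apart, 13 of 149 tested members (8.72%) had an unadjusted p under 0.05, against 16.1% of all genes, and the medians were -0.09 over members and 0.01 over all genes. A p that misses the threshold does not show equal levels. The 95% intervals, each for a single gene and not adjusted for the number of genes, give the range of changes that its values allow. For 92 of the 149 the whole interval lay within a 2-fold change either way, and for 27 within 1.5-fold. The 57 whose interval reached 2-fold all averaged at most 3.06 CPM.

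**Figure D1:**
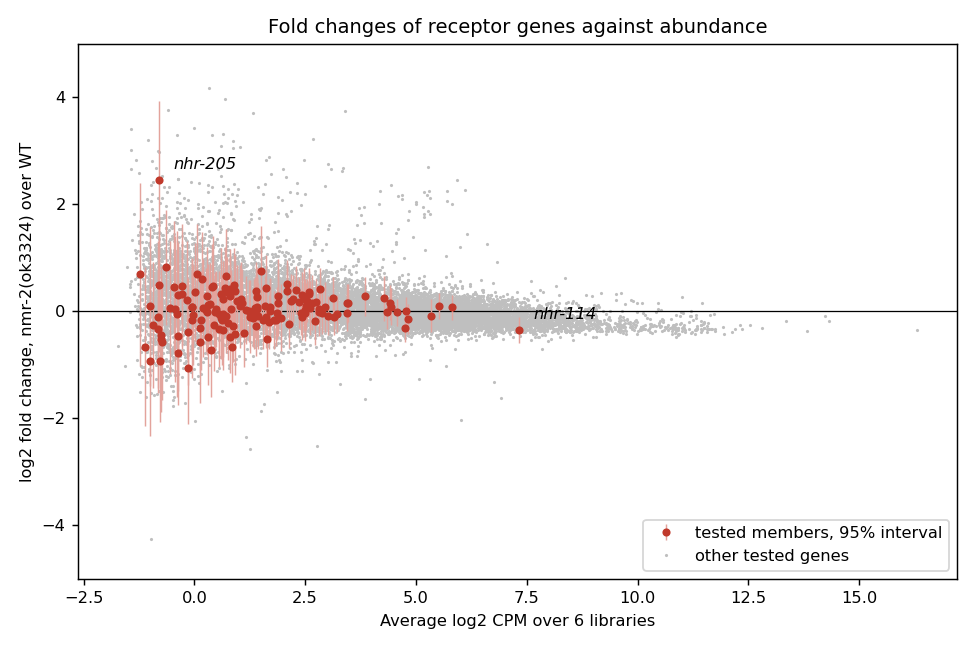
Log2 fold change of nmr-2(ok3324) over WT (vertical axis) against the average log2 CPM over the 6 libraries (horizontal axis), for the 149 tested receptor genes (red points, bars giving the 95% interval) and the other tested genes (grey points). All but 2 receptor genes lie within a 2-fold change either way, and the intervals widen towards low abundance. The 2 are nhr-205, at 2.46, which stands above the rest of the family, and nhr-15, at -1.05. The most abundant member is nhr-114.

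Most receptor transcripts were scarce. Tested members had a median of 2.13 CPM in nmr-2(ok3324) libraries and 2.07 CPM in WT libraries, where all tested genes had medians of 10.7 and 10.2 CPM. Only 16 members averaged above 10 CPM in each genotype, and 35 in the mutant and 32 in WT averaged under 1 CPM. The tested members together summed to 831, 945 and 850 CPM in the 3 nmr-2(ok3324) libraries, in replicate order, and to 905, 875 and 890 CPM in the WT libraries. These sums averaged 875 ± 61.1 CPM in nmr-2(ok3324) animals against 890 ± 14.8 CPM for WT (SD, n = 3 each), and the libraries overlapped. A single library set much of the spread: nmr-2(ok3324) replicate 2 was the highest of the 6 for 51 of 149 members and the lowest for 7. WT replicate 2 was the lowest for 38 members. The same counts were not made over all tested genes, so whether this is particular to the receptor genes was not tested.

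The other 115 members could not be tested. No read was counted for 42 of them in any library, and 73 had between 1 and 62 reads over all 6 libraries, with a median of 6. All 115 together had 650 counts in the mutant and 498 in WT. The 5 with the most reads were nhr-44, nhr-123, nhr-163, nhr-231 and nhr-54. nhr-44 had 8, 31 and 6 counts in nmr-2(ok3324) libraries and 9, 0 and 8 in WT libraries, so 1 mutant library held as many of its reads as the other 5 together. Part of its exons overlaps ttc-17, an abundant gene on the opposite strand, and the strand setting of the counting is not given in the sources used here. nhr-163 had 19, 13 and 8 counts in the mutant and 9, 3 and 2 in WT, and these overlap. Among the tested members, 25 share exon bases with another counted gene, and reads of near-identical family members can be shared or lost, so single values in such pairs are uncertain.

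Chromosome V carried most of the family. It held 167 of the 264 genes (63.3%), against 25% of all protein-coding genes in the tables. Chromosome IV held 33, X 22, I 20, II 15 and III 7. Genes on V were also among the less abundant: the 91 tested there had a median of 1.38 CPM in the mutant and 1.43 CPM in WT, against 6.11 and 5.18 CPM for the 15 tested on X and 4.76 and 3.89 CPM for the 24 on IV. On I only 5 of 20 were tested. Receptor genes lay in groups, with 157 of the 264 within 10 kb of another. The 83 tested genes of such groups had a median of 1.43 CPM in the mutant and 1.44 CPM in WT, and the 66 tested genes that stood alone 5.24 and 4.46 CPM. Median log2 fold changes by chromosome lay between -0.12 on I and 0.16 on III. Within 2 Mb of nmr-2, which itself lies on V, 12 of 39 receptor genes were tested, and their log2 fold changes ran from -0.66 to 0.61 with a median of 0.02. The smallest adjusted p of these 12 was 0.256.

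**Figure D2:**
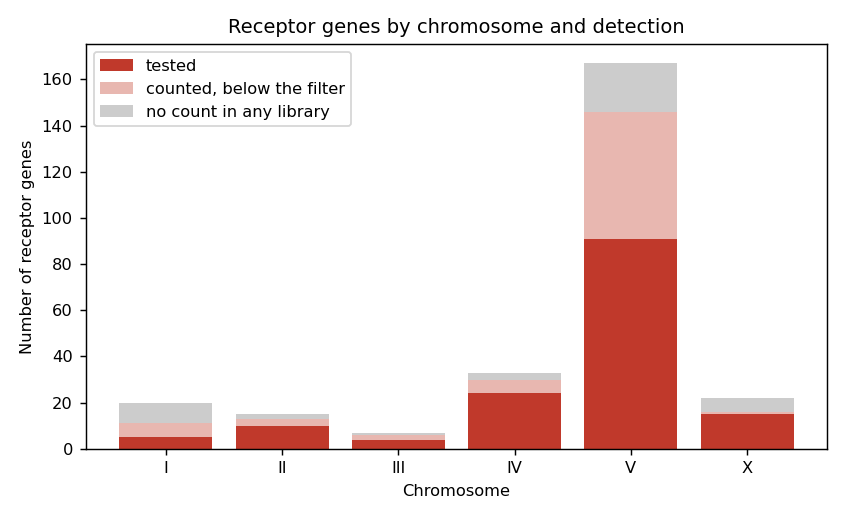
Number of receptor genes (vertical axis) on each chromosome (horizontal axis), split into those tested, those with counts below the filter and those with no count in any library. Chromosome V holds 167 genes, of which 91 were tested, and no other chromosome holds more than 33.

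Per kilobase of exon, which allows levels to be compared between genes, nhr-114 led the family by far. This gut receptor keeps worms fertile on poor bacterial diets and activates genes of methionine and S-adenosylmethionine metabolism. It stood at 92.3 ± 12.4 CPM per kb in mutant animals, against 117 ± 2.94 for WT (SD, n = 3 each). Next came nhr-86, a sensor of a pathogen metabolite that turns on gut defence genes, at 27.8 ± 5.44 and 29.4 ± 3.78 CPM per kb in mutant and WT. The third was nhr-68, which together with nhr-10 activates the propionate breakdown pathway, at 16.6 ± 3.90 CPM per kb in the mutant and 15.6 ± 2.15 in WT. These 3 genes, all on chromosome V, kept their ranks in both genotypes. The following 7 ranks lay close together. In the mutant they ran from nhr-66, at 12 ± 0.311 CPM per kb, to nhr-1, at 9.41 ± 0.811. In WT they ran from nhr-71, at 12.8 ± 1.52 CPM per kb, to nhr-76, at 8.21 ± 1.94. The others there were nhr-46, nhr-274 and nhr-97, and the same 10 genes were the highest in both genotypes. Each of the first 3 genes exceeded the next by more than the larger SD of the pair. Below them, 1 of the steps between neighbours did so in each genotype: nhr-71 above nhr-97 in the mutant, by 1.43 CPM per kb, and nhr-66 above nhr-97 in WT, by 1.96 CPM per kb. At the other end of the tested members in WT stood nhr-205, at 0.626 ± 0.0808 CPM per kb in the mutant and 0.105 ± 0.109 in WT.

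**Figure D3:**
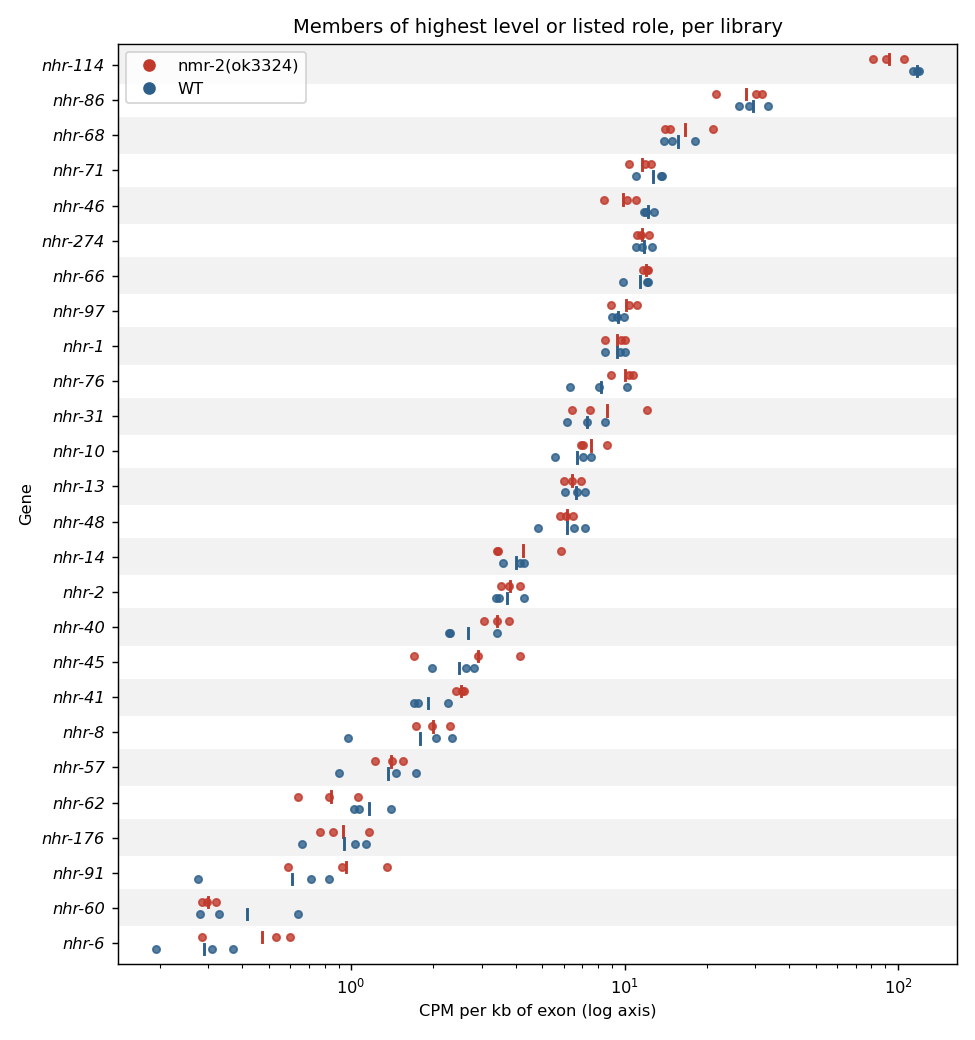
CPM per kilobase of exon (horizontal log axis) in each library for the 10 receptor genes of highest WT level and for all tested members with a listed role (rows, ordered by WT level); red points above are nmr-2(ok3324) libraries, blue points below are WT libraries, and short bars mark group means. nhr-114 stands clear of the others, and its 3 mutant libraries lie below its 3 WT libraries.

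The most abundant member was lower in the mutant in every library, without passing the threshold. nhr-114 (WBGene00003704, chromosome V, 4187202 to 4190008 in WBcel235) had 123, 161 and 137 CPM in its nmr-2(ok3324) libraries, against 182, 179 and 173 CPM in its WT libraries. The groups did not overlap, and the WT libraries lay closer together than those of the mutant. The log2 fold change was -0.34 (SE 0.12, 95% interval -0.59 to -0.10), with an unadjusted edgeR p of 0.00972 and an adjusted p of 0.162. nhr-114 also took a smaller part of all reads of the 264 genes, a share that needs no scaling between libraries: 14.7%, 16.8% and 16% in the mutant, against 19.9%, 20.3% and 19.3% in WT. Without nmr-2(ok3324) replicate 2, the mutant library nearest to WT, the change was -0.46 (edgeR adjusted p = 0.0151) and nhr-114 was the 1 member called lower. That fit called 0.389% of all tested genes lower. Without both libraries numbered 2 it was -0.45 (edgeR adjusted p = 5.96e-05), again the 1 member called, where 1.4% of all tested genes were called lower. Both fits left out the mutant library nearest to WT, which had to widen the difference, so neither call lends support. Over the 15 alternatives the adjusted p of nhr-114 ran from 5.96e-05 to 1.00. The highest came from glmTreat, which tests for a change beyond 1.5-fold and so asks another question. The next highest was 0.583, in edgeR with library totals. With library totals in place of TMM factors it was -0.15, or -0.36 relative to the median of all genes. The germline markers moved in the same direction, 4 of 4 having a log2 fold change below 0 (-0.35 to -0.13) and 0 passing, while the intestinal markers went both ways, 3 of 5 below 0 and 2 above, and 0 of 5 passed. The part of either tissue in the nhr-114 values was not tested.

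Other abundant gut and metabolic receptors had overlapping values. nhr-86 had 44.9, 30.6 and 42.6 CPM in the mutant and 40.4, 47.4 and 36.9 CPM in WT, and nhr-68 had 19.5, 28.1 and 18.7 CPM in the mutant and 18.5, 19.9 and 24.1 CPM in WT. Each pair of groups overlapped, with 95% intervals of -0.39 to 0.23 and -0.26 to 0.43 on the log2 scale. nhr-66, which works with nhr-49 on sphingolipid and membrane lipid genes, had 58.5, 56.2 and 59.1 CPM in the mutant and 47.8, 58.9 and 58.4 CPM in WT. Here 1 WT library was lower and the other 5 lay together. nhr-10, the partner of nhr-68 in propionate breakdown, averaged 11.6 ± 1.47 CPM in mutant libraries, against 10.4 ± 1.61 CPM for WT (SD, n = 3 each). nhr-13, a partner of nhr-49 in fatty acid desaturation, averaged 9.14 ± 0.637 CPM in the mutant and 9.41 ± 0.801 CPM in WT. nhr-14, which represses an iron uptake gene, had 6.31, 10.9 and 6.37 CPM in the mutant and 7.96, 7.66 and 6.64 CPM in WT, with the mutant replicate 2 apart from the rest.

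nhr-76, which acts in the intestine in fat loss driven by serotonin, had 14, 16.4 and 16.9 CPM in the mutant and 16.1, 9.99 and 12.7 CPM in WT. The log2 fold change was 0.28, with an SE of 0.17 and an adjusted p of 0.390 in edgeR. nhr-62, needed for long life under dietary restriction, averaged 1.40 ± 0.347 CPM in the mutant and 1.93 ± 0.343 CPM in WT (log2 fold change -0.47, SE 0.32, adjusted p = 0.439 by edgeR). Of the 8 receptors listed for nutrient and fat metabolism, all were tested, 5 had a log2 fold change above 0 and 3 below, and 0 passed. nhr-114 was the only 1 of these 8 with an unadjusted p under 0.05.

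Receptors of toxin and stress responses overlapped between the genotypes. Besides nhr-86, nhr-176, which mediates induction of a cytochrome P450 gene by the drug thiabendazole, averaged 1.13 ± 0.254 CPM in the mutant and 1.15 ± 0.302 CPM in WT. nhr-57, a target of the hypoxia factor HIF-1, averaged 2.18 ± 0.255 CPM in the mutant and 2.13 ± 0.659 CPM in WT. nhr-45, linked to detoxification genes under mitochondrial dysfunction, had 3.48, 8.44 and 5.94 CPM in the mutant and 5.38, 4.02 and 5.75 CPM in WT. Its mutant libraries were spread on both sides of the WT libraries. The 4 genes had adjusted p-values of at least 0.673 with edgeR.

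Of the 8 members listed here for subfamilies shared with insects and vertebrates, 5 were tested and 0 passed, 4 having a log2 fold change above 0. nhr-41, related to the vertebrate testicular receptors, had 5.25, 5.64 and 5.51 CPM in the mutant and 4.91, 3.69 and 3.82 CPM in WT. Every mutant library was above every WT library (log2 fold change 0.40, SE 0.21, adjusted p = 0.329 by edgeR). nhr-6, the worm's NR4A receptor, needed for the spermatheca and ovulation, had 1.49, 0.710 and 1.33 CPM in the mutant and 0.775, 0.921 and 0.483 CPM in WT (0.70, SE 0.44). nhr-91, related to germ cell nuclear factor of vertebrates, had 2.62, 1.79 and 1.14 CPM in the mutant and 1.38, 0.533 and 1.61 CPM in WT (0.65, SE 0.41). The groups overlapped for both. nhr-8, a relative of the steroid receptor gene daf-12 that takes part in toxin resistance and cholesterol balance, averaged 3.78 ± 0.529 CPM in the mutant and 3.38 ± 1.36 CPM in WT. Its neighbour in the same subfamily, nhr-48, averaged 20.1 ± 1.10 CPM in the mutant and 20.2 ± 3.92 CPM in WT. Among the untested, nhr-67, the tailless relative that patterns the vulva and uterus, had 8, 4 and 8 counts in the mutant and 7, 0 and 7 in WT. nhr-239 had 2 counts in each genotype. nhr-111 had 0 counts in every library, which by counting error alone allows a level of up to 0.106 to 0.145 CPM, depending on the library.

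The 4 receptors listed for organ development were tested and 0 passed. nhr-31, which maintains the excretory canal through proton pump genes, had 15.6, 29.4 and 18.2 CPM in the mutant and 20.6, 15 and 17.8 CPM in WT, with mutant replicate 2 above the other 5. nhr-40, which acts in muscle and embryonic shape, had 5.96, 7.36 and 6.60 CPM in the mutant and 4.48, 4.41 and 6.64 CPM in WT (log2 fold change 0.35, SE 0.21). nhr-2, an early embryonic receptor, averaged 7.03 ± 0.566 CPM in the mutant and 6.85 ± 0.918 CPM in WT. nhr-60, expressed in seam cells of the epidermis, averaged 0.433 ± 0.0256 CPM in the mutant and 0.599 ± 0.281 CPM in WT.

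The widest difference of the family was in a rare transcript. nhr-205 (WBGene00011002, chromosome V, 10080083 to 10081776 in WBcel235) had 21, 25 and 16 reads in its nmr-2(ok3324) libraries, against 3, 0 and 7 reads in its WT libraries. Every mutant library was above every WT library. In sum, 62 mutant reads stand against 10 WT reads, or 5.60-fold more per unit of depth (exact 95% interval 2.85 to 12.3, for counting error only). edgeR put the log2 fold change at 2.46 with an SE of 0.69 and an adjusted p of 0.0889. nhr-205 passed the low-count filter, set at 10 reads at median depth, through its mutant libraries alone. A gene kept in this way had to differ, so neither the lack of overlap nor the filtered tests of it lend support. The ratio of summed reads lends none either, since the gene was picked as the widest difference. DESeq2 called it higher (adjusted p = 0.0374), as the 1 member called, where it called 2.32% of all tested genes higher. So did edgeR without the low-count filter (adjusted p = 0.0224), again as the 1 member, with 2.27% of all genes called higher. Over the 14 alternatives that tested it, the log2 fold change ran from 1.84 to 3.48 and the adjusted p from 0.0224 to 0.309, the highest from glmTreat at 1.5-fold. Its neighbour nhr-12 had 166, 193 and 170 counts in the mutant and 117, 132 and 179 in WT, which overlap (log2 fold change 0.18, edgeR adjusted p = 0.652). nhr-12 was named after its values were seen.

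The other members with an unadjusted p under 0.05 were nhr-46, nhr-84, nhr-4 and nhr-286. nhr-46 had 20.6, 27.0 and 25 CPM in the mutant and 29.4, 31.3 and 28.9 CPM in WT (log2 fold change -0.30, SE 0.13). nhr-84 had 4.82, 5.56 and 4.18 CPM in the mutant and 3.53, 3.30 and 3.46 CPM in WT (0.50, SE 0.22). The groups did not overlap for either gene. nhr-4 had 7.27, 8.22 and 8.74 CPM in the mutant and 5.72, 5.38 and 7.0 CPM in WT (0.42, SE 0.18). nhr-286 had 1.28, 1.16 and 1.62 CPM in the mutant and 2.37, 2.33 and 1.69 CPM in WT (-0.66, SE 0.31). These groups were also apart, though by a narrow gap between nhr-286 libraries. Their adjusted p-values lay between 0.244 and 0.290.

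In all, the genotypes did not overlap for 18 tested members. Mutant libraries were the higher ones for 10 members (6.71%) and the lower ones for 8 (5.37%), where the shares over all tested genes were 13.4% and 11.0%. The 10 include nhr-205, which the filter kept through its mutant libraries alone. Of the remaining genes with the smallest p, the higher ones were nhr-156 (0.76, SE 0.39), nhr-140 (0.82, SE 0.51), nhr-22 (0.32, SE 0.20) and nhr-122 (0.38, SE 0.24). nhr-156 varied widely within both genotypes, with 3.83, 4.52 and 1.90 CPM in the mutant and 3.27, 0.921 and 1.85 CPM in WT. The lower ones were nhr-181 (-0.51, SE 0.24), nhr-15 (-1.05, SE 0.50), nhr-237 (-0.94, SE 0.54), nhr-190 (-0.72, SE 0.42), nhr-142 (-0.77, SE 0.46), nhr-225 (-0.93, SE 0.66), nhr-96 (-0.41, SE 0.30) and nhr-132 (-0.43, SE 0.36). All 12 had edgeR adjusted p-values between 0.294 and 0.535. nhr-140 had 23, 18 and 13 reads in the mutant and 11, 10 and 6 in WT. nhr-15 had 11, 24 and 6 reads in the mutant and 27, 15 and 35 in WT. The low-count filter kept both mainly through the group with more reads, so their place among the smallest p lends no support. nhr-142, nhr-225 and nhr-237 were also scarce, and an alternative filter of 1 CPM in 3 libraries left them out. The place of these genes among the smallest p lends no support either. nhr-181 had 2.31, 2.88 and 2.38 CPM in the mutant and 3.36, 4.17 and 3.30 CPM in WT, and its groups did not overlap.

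**Figure D4:**
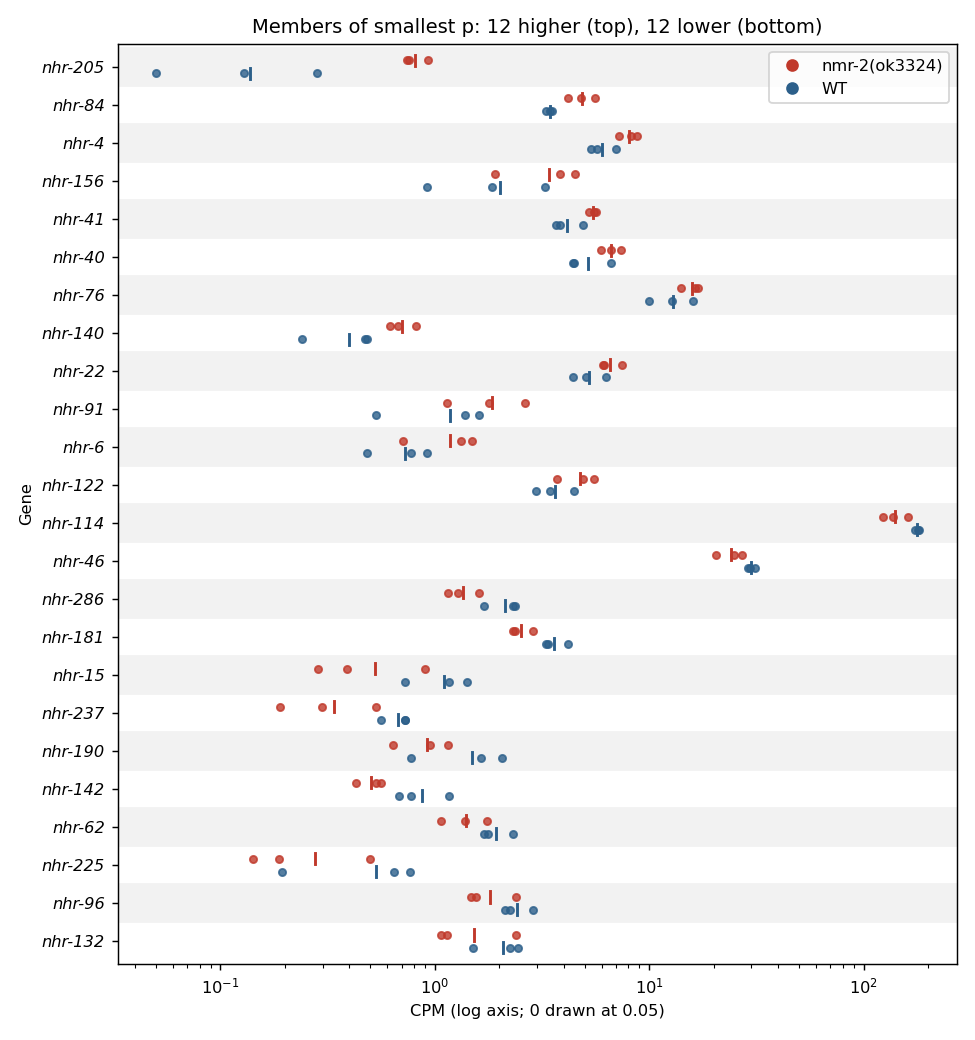
CPM (horizontal log axis, 0 drawn at 0.05) in each library for the 12 receptor genes of smallest p with higher values in the mutant (upper rows) and the 12 with lower values (lower rows); red points above are nmr-2(ok3324) libraries, blue points below are WT libraries, and short bars mark group means. nhr-205 shows the widest gap, with 0.745 to 0.934 CPM in the mutant and 0 to 0.282 CPM in WT, and the gaps of the other rows without overlap are narrower.

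Abundance is a property that bears on such values, since fold changes over all genes drifted with it. Ordered by abundance and cut into 10 bins of equal size, all tested genes had median log2 fold changes of 0.27, 0.27, 0.24, 0.18 and 0.11 in the lowest 5 bins and -0.19 in the highest. The receptor genes of the lowest 5 bins (23, 35, 31, 24 and 20 genes) had medians of -0.05, -0.01, 0.04, 0.04 and 0.07. In those bins 1, 0, 1, 1 and 1 members had an unadjusted p under 0.05, where the share over all genes of a bin lay between 9.59% and 19.6%. Standard errors of the members were close to those of all genes, for example a median of 0.57 against 0.56 in the lowest bin and 0.20 against 0.19 in bin 5. nhr-114 was the 1 member in the highest bin, where its -0.34 stood beside the median of -0.19 over all genes. Without both libraries numbered 2, the medians of the lowest 5 bins were -0.08, -0.21, -0.09, -0.17 and -0.07 over the receptor genes and 0.16, 0.15, 0.14, 0.07 and 0.05 over all genes, and that of all genes in the highest bin was -0.03. What sets these medians apart was not tested. Replicate spread was modest in the 40 members above 5 CPM: the highest library exceeded the lowest by a median of 1.31-fold in the mutant and 1.27-fold in WT, against 1.23-fold and 1.20-fold in other genes above that level.

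**Figure D5:**
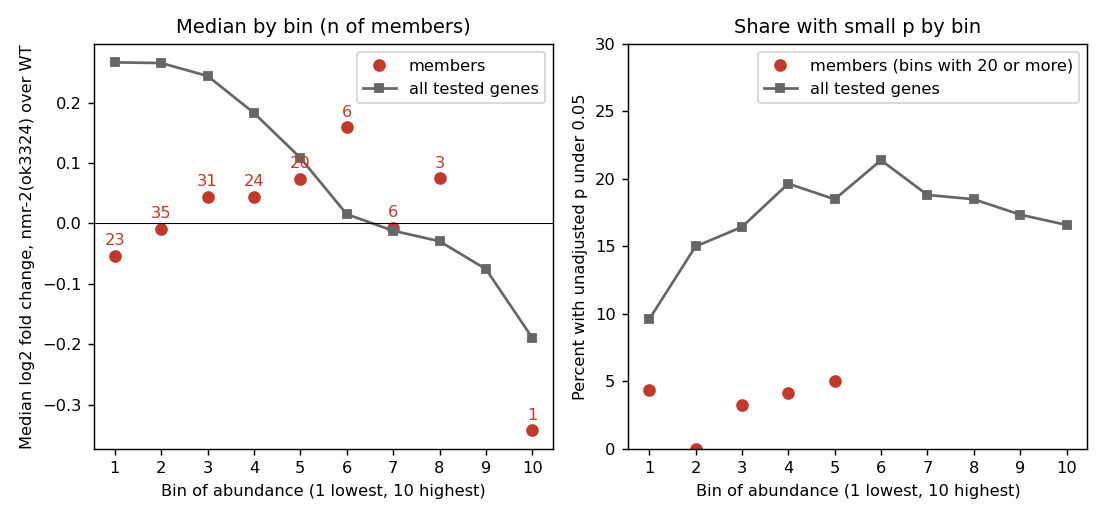
Median log2 fold change of nmr-2(ok3324) over WT (left, vertical axis) and percent of genes with an unadjusted p under 0.05 (right, vertical axis) by bin of abundance (horizontal axes, 1 lowest), for receptor genes (red points; their number is printed at left, and only bins with 20 or more are drawn at right) and all tested genes (grey squares). In the lowest 4 bins the receptor medians lie between -0.05 and 0.04 while those of all genes lie between 0.18 and 0.27.

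Genes that work with these receptors were followed from lists of other named receptors, hormone synthesis, cofactors and targets. Of the 5 receptors that the rule left out, nhr-80, a regulator of fatty acid desaturases, rose: it had 16, 15.9 and 14.8 CPM in the mutant and 7.06, 7.76 and 6.24 CPM in WT (log2 fold change 1.15, SE 0.15, adjusted p = 0.000316 by edgeR). The other 4 did not pass, and nhr-85 had the smallest p of them (0.71, SE 0.37, adjusted p = 0.336 by edgeR). Among receptors with other names, daf-12 averaged 11.3 ± 2.06 CPM in the mutant and 11.5 ± 1.26 CPM in WT, and sex-1, which counts X chromosomes in sex determination, 11.8 ± 1.85 CPM and 13.3 ± 3.51 CPM. Their log2 fold changes were -0.02 and -0.17, and both signs turned with library totals alone. fax-1, unc-55 and odr-7, receptors of neuronal identity, were below the filter.

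For steroid hormone synthesis and sterol handling, 6 of 7 genes were tested, 0 rose and 0 fell. ncr-1, a Niemann-Pick cholesterol transporter gene, had 8.80, 9.52 and 10.3 CPM in the mutant and 7.27, 6.89 and 7.20 CPM in WT, without overlap (log2 fold change 0.42, SE 0.16, edgeR adjusted p = 0.223). daf-9, the cytochrome P450 that makes the DAF-12 hormone, averaged 1.54 ± 0.502 CPM in the mutant and 2.14 ± 0.442 CPM in WT (-0.46, SE 0.33). All 4 cofactor genes were tested and 0 passed. The Mediator subunit gene mdt-15, a coactivator of several gut receptors, averaged 105 ± 8.32 CPM in the mutant and 103 ± 5.94 CPM in WT. The corepressor gene din-1 (0.13, SE 0.12) and the Mediator gene dpy-22 (0.22, SE 0.20) had the smallest p of that list.

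Among 13 genes reported as targets of members, 12 were tested, 0 rose and 1 fell. irg-5, an infection response gene activated with nhr-86, fell: it had 7.34, 7.58 and 10.4 CPM in the mutant and 13.4, 16.9 and 13.3 CPM in WT (log2 fold change -0.79, SE 0.18, edgeR adjusted p = 0.0284). Its call was lost in 8 of 15 alternatives. Among them was each of 4 fits that left out nmr-2(ok3324) replicate 1 or 2 or WT replicate 1 or 2 (edgeR adjusted p = 0.123, 0.0585, 0.0705 and 0.0895). The adjusted p of irg-5 ran from 0.000618 to 1.00 over the 15. The highest came from glmTreat at 1.5-fold, and the next, 0.166, from edgeR with library totals. hphd-1, an enzyme of the propionate pathway controlled by nhr-10 and nhr-68, had 447, 389 and 443 CPM in the mutant and 575, 670 and 547 CPM in WT, without overlap (-0.49, SE 0.14, edgeR adjusted p = 0.0956). It was called lower in 3 of 15 alternatives: with DESeq2 (adjusted p = 0.00473), without the low-count filter (adjusted p = 0.0401, edgeR) and without both libraries numbered 2 (adjusted p = 0.000712, edgeR). Its adjusted p ran from 0.000712 to 1.00 over the 15, the highest from glmTreat at 1.5-fold and the next, 0.432, from edgeR with the replicate block. acdh-1, the first enzyme of that pathway, had 607, 852 and 605 CPM in the mutant and 870, 726 and 850 CPM in WT, and these overlap. It was called lower without both libraries numbered 2 alone (log2 fold change -0.51, edgeR adjusted p = 2.81e-07). For nhr-114, its reported targets sams-1 and metr-1, enzymes of the methionine cycle, averaged 387 ± 19.7 and 266 ± 16.1 CPM in the mutant and 346 ± 18.7 and 253 ± 16.4 CPM in WT, with edgeR adjusted p-values of 0.484 and 0.760.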

How the data were processed

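The authors deposited 1 table for each library, holding unnormalized whole-number counts of reads per gene. The submitters' processing notes name HTSeq and DESeq2, without saying which version. Which aligner, genome build, annotation and strand setting were used is not given in the sources used here. A name table gave symbols for 44059 of the 46911 identifiers. Coordinates, biotypes and exon lengths came from the WBcel235 annotation of Ensembl release 115.

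Counts were fitted for all genes in R 4.3.3 with edgeR 4.0.16: filterByExpr by genotype (nmr-2 kept in any case), TMM factors, glmQLFit with robust estimation, glmQLFTest and Benjamini-Hochberg adjustment at 0.05 over all 13138 tested genes. The SE is the absolute log2 fold change divided by the square root of F, and 95% intervals use the fit's degrees of freedom. The steps were tested on simulated data. Alternatives used DESeq2 1.42.0, limma-voom (limma 3.58.1), RLE factors, library totals, other filters, glmTreat at 1.5-fold, a replicate block and left-out libraries. The labels do not say whether the libraries of 1 genotype are separate cultures; the p-values then reflect only the spread among these libraries, which may be technical. Intervals for counts cover counting error only.

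The members and lists were chosen with earlier results of these data known. Named were the 12 members of smallest p in each direction, the 10 of highest level per kb of exon in WT, those with a listed role, the 5 untested with most reads, and, of partner lists, called genes and the 2 of smallest p. Figures were drawn with matplotlib 3.10.9.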

Additional observations from a re-analysis of the deposited data

How the results depend on the processing

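The counts of members that rose and fell, 0 each, stayed 0 except that 1 rose (nhr-205) with DESeq2 and without the low-count filter, and 1 fell (nhr-114) without nmr-2(ok3324) replicate 2 and without both libraries numbered 2; over the fits that left out 1 library the counts ran from 0 to 0 for rises and from 0 to 1 for falls. The cause was not tested. Library totals alone moved the median log2 fold change of members to 0.23 and that of all genes to 0.20. The 18 members without overlap became 30 to 37 when 1 library was left out and 58 without both libraries numbered 2, where fewer libraries make overlap rarer. The shares over all tested genes were not counted for these smaller sets, so the rise is not a result about the receptor genes. Of the partner genes, the 1 that fell, irg-5, became 2 with DESeq2 and without the low-count filter (irg-5 and hphd-1) and 2 without both libraries numbered 2 (hphd-1 and acdh-1, irg-5 having lost its call), and 0 with library totals alone, with glmTreat and with the replicate block, and ran from 0 to 1 when 1 library was left out. The log2 fold change of sex-1 changed sign to 0.0648 without both libraries numbered 2 and 0.0198 with library totals alone, and that of daf-12 to 0.176 with library totals alone; when 1 library was left out sex-1 ran from -0.340 to 0.0411 and daf-12 from -0.188 to 0.0544. The 24 members named for their p kept their direction in every alternative that tested them. Of the 18 others named for role or level, none passed in any alternative, and 14 changed sign without both libraries numbered 2. Whether equal numbers mark paired libraries could not be settled. Deviations of same-numbered libraries correlated at 0.00077, -0.28 and -0.10, and those of the other pairs ran from -0.15 to 0.23. Deviations from a mean of 3 libraries are tied to each other, so these values cannot decide it. With the replicate block 142 genes were called in place of 284, 0 of them members. The block leaves fewer degrees of freedom, so fewer calls do not bear on pairing. Depth limits the 57 members whose interval reached 2-fold and the 115 that were not tested.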
